A study of Mus musculus with 7 samples.

Results

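Thymocytes that lacked the adaptor LAT but still displayed an intermediate level of γδ T-cell receptor (TCR) at their surface (Lat-KO DN3 γδint) were compared with wild-type thymocytes that carried the γδ TCR (WT DN3b γδ+). A barcode, the tag that stands for 1 captured cell, was kept as a thymocyte when it had at least 1000 detected genes, at most 10% mitochondrial transcripts and at most 1 UMI (a tagged transcript molecule) of the B cell genes Cd79a, Cd79b and Ms4a1 together. This kept 4928 Lat-KO and 11663 WT barcodes, that is 16591 of the 66446 thymocyte barcodes found by the same rule in all 7 libraries and of 90016 barcodes in all. UMIs were summed per gene and library, scaled to the same total in each library (CPM) and set side by side as a log2 ratio of Lat-KO over WT, so that a negative value means lower in the Lat-KO library. Because each side was 1 library, no difference was tested, and every 95% interval covers counting error only.

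The series comprised 7 libraries of 10x Chromium 3' single-cell RNA sequencing from C57BL/6 mouse thymus. The WT mice were 6 to 8 weeks of age, and their pooled thymi were depleted of CD4+ and CD8+ cells with magnetic beads before DN3b γδ+ cells, which lack CD4 and CD8 and carry TCRδ and CD3 at the surface, were sorted. The Lat-KO mice were Lat-/-TCRd-H2BEGFP, so that they lacked functional Lat and carried, in the gene of the TCR δ constant region (Trdc), a histone fused to green fluorescent protein as a reporter. Their pooled thymi were sorted without bead depletion, and their age is not given in the sources used here. Each library also received 500 splenic B cells. Genotype, reporter allele, sorting gate, bead depletion and library therefore differed together between the sides and cannot be told apart.

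In a developing T cell, engagement of the pre-TCR or the γδ TCR activates the kinases LCK and ZAP-70, and ZAP-70 phosphorylates LAT, a membrane scaffold that gathers PLCγ1, SLP-76 and GRB2. The branches that start there lead to calcium release and NFAT, to diacylglycerol, RASGRP1 and ERK, and to NF-κB. ERK induces the EGR transcription factors, which raise Id3, an inhibitor of the E proteins that maintain the Rag and Ptcra genes in DN3a thymocytes, the stage before selection. Strong signals of this kind accompany γδ lineage commitment, and weaker ones accompany β-selection.

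Several properties of the libraries touch every value given here. The Lat-KO library held 37034884 thymocyte UMIs, with a median of 5878 UMIs and 2475 genes per barcode, whereas the WT library held 194621578, with medians of 15990 and 3659. Transcripts of ribosomal-protein genes made up 15.99% of thymocyte UMIs in the Lat-KO γδint library, 26.5% in WT DN3b γδ+ and 25.7% to 31.4% in the other 5 libraries. The γδint library stood apart in the same way in its spiked B cells, where the share was 18.0% against 31.6% in the WT library. Close to the limit on genes, 30 Lat-KO and 40 WT barcodes lay within 100 genes above it, and 24 and 34 within 100 genes below it. The libraries had 34 barcode sequences in common. Scrublet, a doublet caller, marked none of the Lat-KO and 823 (7.06%) of the WT thymocyte barcodes with its own threshold. No barcode was left out for it here, and leaving out the 8% with the highest scores served as an alternative.

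The labels were checked first on Lat itself, which lies on mm10 chromosome 7 (126363824 to 126369570, minus strand). Lat had 33 UMIs (0.891 CPM, 0.613 to 1.25) in Lat-KO γδint and 74598 UMIs (383 CPM) in WT DN3b γδ+, a log2 ratio of -8.75 (-9.29 to -8.26). The Lat-KO γδ− library had 4.82 CPM, and the other 4 WT libraries had 357 to 643 CPM, so that the levels of Lat separated the genotypes without overlap. After each barcode was thinned to 4000 UMIs, 0.357% of Lat-KO and 77.8% of WT barcodes had a Lat UMI (0.629% and 97.2% without thinning). In B cell barcodes, which should lack Lat, a UMI was seen in 0 of 18 and in 7 of 35, with at most 2 UMIs of Cd3d, Cd3e and Cd3g allowed in such a barcode.

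The neighbouring gene Spns1, a lysosomal lipid transporter which lies 0.49 kb upstream of Lat on the same strand, was higher in both Lat-KO libraries. Spns1 stood at 54.2 CPM in γδint and 54.0 CPM in γδ− Lat-KO cells, against 10.5 CPM in WT DN3b γδ+ (log2 ratio 2.37, 2.28 to 2.46) and 11.9 to 15.3 CPM in the other WT libraries. It was singled out after its values were seen.

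Trdc, whose reporter allele is listed as a feature of its own, was at 35.9 CPM in Lat-KO γδint and 1015 CPM in WT DN3b γδ+. The reporter feature had 1623 UMIs (43.8 CPM) in the Lat-KO library and 3 UMIs in the WT library. Added together, the allele forms reached 79.7 CPM (76.9 to 82.6) against 1015 CPM (1011 to 1019), a log2 ratio of -3.67 (-3.72 to -3.62). The sum was 54.6 CPM in Lat-KO γδ− and 315 CPM in WT DN3a, so that Trdc transcripts in the γδint library lay below those of unselected WT cells. Whether reads of the modified transcript were counted as fully as those of the WT allele cannot be told from the counts. Transcripts of the γ chain did not follow Trdc: Tcrg-C1 stood at 520 against 299 CPM, Tcrg-C2 at 752 against 473 CPM and Tcrg-C4 at 495 against 313 CPM. These 3 log2 ratios (0.66 to 0.80) were under 2-fold, as were those of the β-chain genes Trbc1 (-0.84) and Trbc2 (-0.50). Trac, the α constant region, was at 0.513 CPM against 39.3 CPM (-6.26).

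The T-cell label held for both libraries. A barcode had at least 3 Cd3 UMIs in 99.9% of Lat-KO and 99.5% of WT thymocyte barcodes, and all 10 T-cell markers were detected, with Cd3g at 3787 and 1458 CPM. Of the markers of other cells, mast cell genes had no UMI, the NK receptor genes Ncr1, Klrb1c, Klrk1 and Klrd1 were at 0 UMIs in Lat-KO and at most 0.211 CPM in WT, and erythroid genes summed to 0.378 and 2.39 CPM. Lyz2, the lysozyme of myeloid cells, was at 34.5 CPM in Lat-KO γδint and 0.653 CPM in WT DN3b γδ+. The other 6 myeloid markers were at or below 1.58 CPM on both sides, and Lyz2 was also at 19.4 CPM in WT DN3a and 44.5 CPM in Lat-KO γδ−. Epcam, listed as an epithelial marker, was at 174 and 47.8 CPM, while Foxn1, Psmb11, Krt5 and Krt8 stayed at or below 0.324 CPM. Summed over each list, myeloid markers reached 36.3 and 3.25 CPM, NK markers 111 and 319 CPM, nearly all of it the granule gene Nkg7, and B cell markers, 3 of which the rule used, 178 and 102 CPM. Among the 5 markers listed for plasmacytoid dendritic cells, which thymocytes share in part, Ly6d was higher (1005 against 278 CPM) and Ccr9 lower, and the sums were 1092 and 453 CPM. The part of these cells in the results was not tested.

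A gene entered the comparison when it reached 20 CPM in at least 1 of the libraries, which 6588 genes did, and these are called tested below although no statistical test was possible. It was called when it differed at least 2-fold in the same direction both with CPM and with TMM, a scaling that sets the bulk of genes level. TMM lowered each log2 ratio by 0.64, and it moved the median over tested genes from 0.51 to -0.12. With CPM 1704 ratios were negative and 4884 positive, and with TMM 3777 and 2811. Called lower in Lat-KO were 488 genes (7.41% of those tested), of which 47 encode ribosomal proteins and 2 are mitochondrial, and called higher were 590 genes (8.96%). In the plot of ratio by level, the lower genes included Lat and Nrgn, which were nearly absent from the Lat-KO library, and the higher genes included Rag1, Ptcra and H19.

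**Figure D1:**
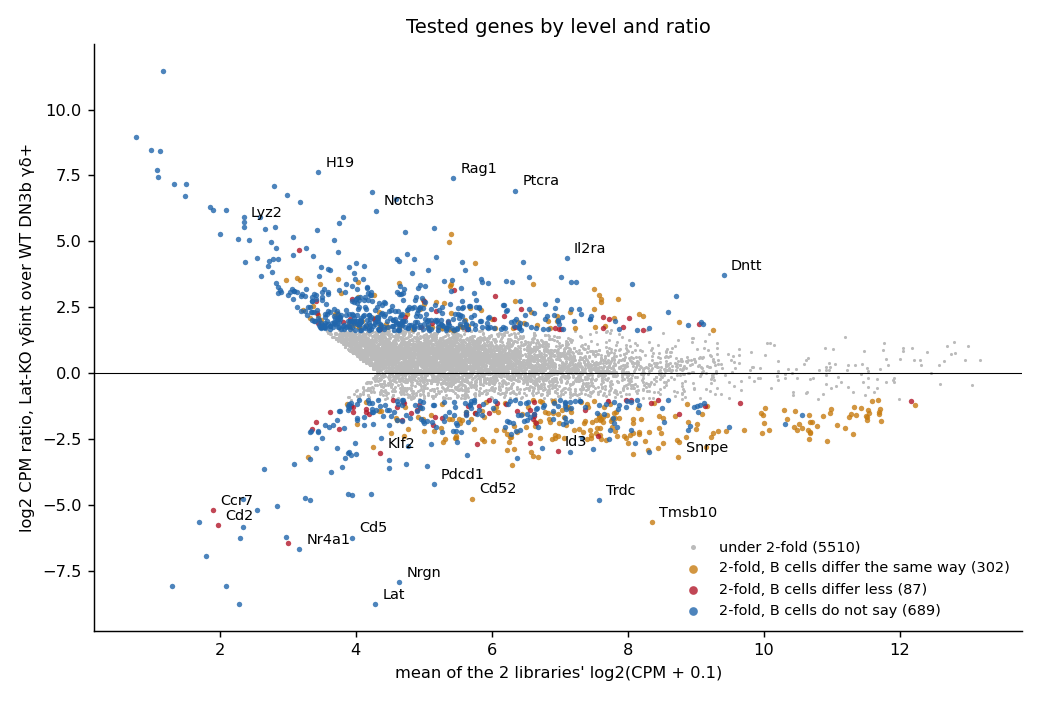
Each point is 1 of 6588 tested genes, with the mean of its log2(CPM + 0.1) over both libraries on the x axis and its log2 CPM ratio (Lat-KO γδint over WT DN3b γδ+) on the y axis. Grey points are not called (5510), orange points differ the same way in B cells (302), red points differ less there or the opposite way (87), and for blue points the B cells are not informative (689). The orange points below 0 are crowded at high levels.

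The spiked B cells passed through the same library preparation as the thymocytes beside them, and genes that differed in the same way there were set apart. By the rule of at least 5 UMIs of Cd79a, Cd79b and Ms4a1 there were 151 B barcodes in the Lat-KO and 186 in the WT library. They set apart 397 of the 488 lower genes as moving 2-fold the same way and left 45 that did not and 46 undecided, while of the 590 higher genes 483 moved the same way, 5 did not and 102 were undecided. These B barcodes also held thymocyte RNA. The T-cell markers Cd247, Lck, Thy1, Trbc1, Trbc2, Bcl11b and, in the Lat-KO library, Ptcra stood in them at 39.1% to 52.6% of the thymocyte CPM in the Lat-KO and at 67.2% to 81.4% in the WT library. Lat itself, with 1 UMI in the Lat-KO and 518 UMIs in the WT B barcodes, was among the genes the rule set apart.

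A second classification, added after these values were seen, used the 105 and 80 B barcodes with at most 2 Cd3 UMIs, in which the same markers with at least 10 UMIs stood at 3.999% to 12.3% and at 20.8% to 34.1% of the thymocyte CPM. It counted a B cell difference only where the B cell UMIs exceeded those that carried-over thymocyte RNA could give. By this reading 216 of the lower genes differed the same way in B cells, 54 stayed short of 2-fold in that direction there and 218 could not be read in B cells. For the higher genes these numbers were 86, 33 and 471. Where the text below says that B cells differed too, differed less or were not informative, it refers to this classification. Genes with B cells differing less include some that differed the opposite way there, such as the lower gene Evl (B cell log2 ratio 1.47).

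The lower genes that B cells shared were mostly short. Their longest annotated transcripts had a median of 927.5 nucleotides, and 54.6% were under 1000 nucleotides, against 5.53% of all tested genes. Of the lower genes for which B cells were not informative, 27.5% were under 1000 nucleotides, so that short transcripts were not confined to the shared genes. Snrpe, a core protein of the spliceosome, was at 142 CPM in Lat-KO and 1300.0 CPM in WT thymocytes (log2 ratio -3.19), and its B cell ratio was -2.82. Lsm5 (-3.47, B cells -2.75), Mrpl52 of the mitochondrial ribosome (-3.17, B cells -2.58) and the respiratory-chain subunit Ndufa4 (-2.92, B cells -2.46) behaved alike. Leaving out ribosomal-protein and mitochondrial genes, the median log2 ratio was -2.18 for transcripts under 500 nucleotides, -0.81 from 500 to 1000, 0.42 from 1000 to 2000, 0.50 from 2000 to 4000 and 0.65 above, and the B cell medians were -1.91, -0.77, 0.40, 0.40 and 0.47. Of the lower genes that B cells shared, 4 differed in thymocytes by at least 2-fold beyond the B cells, among them Tmsb10, an actin-sequestering thymosin (-5.66, B cells -2.70), and Cd52 (-4.75, B cells -1.75). Of the 86 higher genes that B cells shared, 25 differed beyond them by that amount, such as Pld4, an endolysosomal exonuclease (262 against 6.72 CPM, log2 ratio 5.29, B cells 1.11), and the MYC antagonist Mxd4 (228 against 12.6 CPM, 4.18, B cells 1.15).

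**Figure D2:**
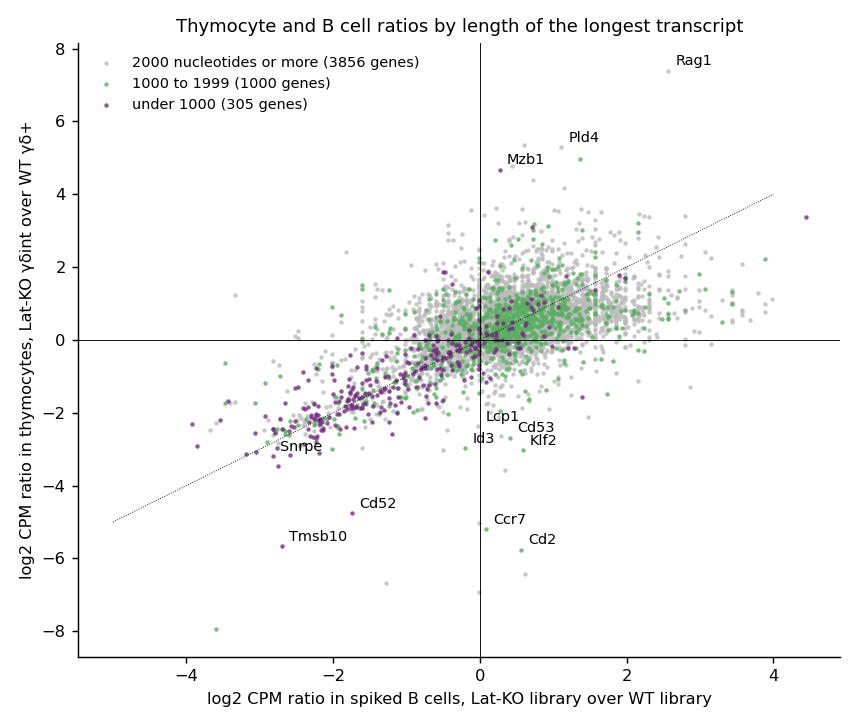
Log2 CPM ratios of 5161 genes in spiked B cells with at most 2 Cd3 UMIs (x axis) and in thymocytes (y axis), Lat-KO library over WT library, coloured by the length of the longest transcript; the dotted line marks equal ratios. Short transcripts (305 genes under 1000 nucleotides) run along the line below 0, whereas Cd2, Ccr7, Klf2, Cd53, Id3 and Lcp1 lie far below it and Rag1, Pld4 and Mzb1 far above.

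Nearly all of a set of genes that distinguish WT DN3b γδ+ cells after γδ TCR signalling were lower in the Lat-KO cells. Of 14 genes that the text of the study names as TCR-induced, which may be only some of its signature and are called the TCR-induced list here, 13 were called lower and none higher, beside 7.41% and 8.96% of all tested genes. Their median log2 ratio was -3.16 beside 0.51 over all tested genes. The medians of the members' own lower and upper bounds were -3.36 and -2.98, which is not an interval of the list median. The study chose these genes on the WT libraries, with WT DN3b γδ+ among them, so that a lower level elsewhere is not independent evidence of its direction, and 12 of the 14 reached the minimum of 20 CPM only in WT DN3b γδ+. Summed over the list, the level was 157 CPM in Lat-KO γδint, 238 CPM in Lat-KO γδ−, 302 CPM in WT DN3a, 135 CPM in WT DN3b γδ−, 1307 CPM in WT DN3b γδ+ and 3649 CPM in WT DN4 γδ+. The γδint library lay between WT DN3b γδ− and Lat-KO γδ−. By the B cell rule 10 of the 13 lower genes were set apart, and by the reading with carried-over RNA B cells differed too for 2, differed less for 3 and were not informative for 8.

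Cd5, a scavenger receptor that restrains TCR signalling and reports its strength, was at 1.73 CPM in Lat-KO γδint and 130 CPM in WT DN3b γδ+ (64 against 25233 UMIs), a 75.0-fold difference and the widest of the list. Its level in the γδint library was also below that of WT DN3a (4.76 CPM) and equal to that of Lat-KO γδ− (1.89 CPM) within counting error. Cd6, a related receptor, was at 7.07 against 69.5 CPM, and Pdcd1, which encodes the inhibitory receptor PD-1, at 8.15 against 151 CPM. The ETS transcription factor Etv5 was at 2.97 against 71.0 CPM (log2 ratio -4.58), and Sox13, a transcription factor of the γδ lineage, at 10.3 against 70.6 CPM (-2.77). Sox13 in γδint cells was close to WT DN3a (10.9 CPM) and below Lat-KO γδ− (18.8 CPM). Cpa3, a carboxypeptidase, Tes, a focal adhesion protein, and Itgb2, the integrin β2 chain, had log2 ratios of -3.45, -3.58 and -3.02.

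Klf2, a transcription factor of quiescence and egress, the tetraspanin gene Cd53 and the kinase gene Blk were lower in Lat-KO thymocytes (7.13 against 58.0, 21.8 against 140, and 16.6 against 46.9 CPM) while the B cell log2 ratios were 0.58, 0.41 and 1.24. For these 3 genes the B cells were thus not lower in the Lat-KO library. Cd52 and Clec2d, a ligand of NK receptors, were lower in B cells too (-1.75 and -1.68), and the B cell value for Clec2d was close to that in thymocytes (-1.78). Sesn3, a stress-induced regulator of growth, was the member that was not called (38.6 against 48.3 CPM, log2 ratio -0.32). In the map of levels over all libraries, Sesn3 is at similar colour in γδint and WT DN3b γδ+, while the 13 lower genes are higher in both WT γδ+ columns than in γδint. Cd52, Cd53 and Clec2d are also visible in WT DN3a (64.9, 39.3 and 97.1 CPM) and in Lat-KO γδ− (43.3, 34.2 and 59.4 CPM). Together they made up most of the list sum of WT DN3a (302 CPM), and Clec2d was higher in WT DN3a than in WT DN3b γδ+.

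**Figure D3:**
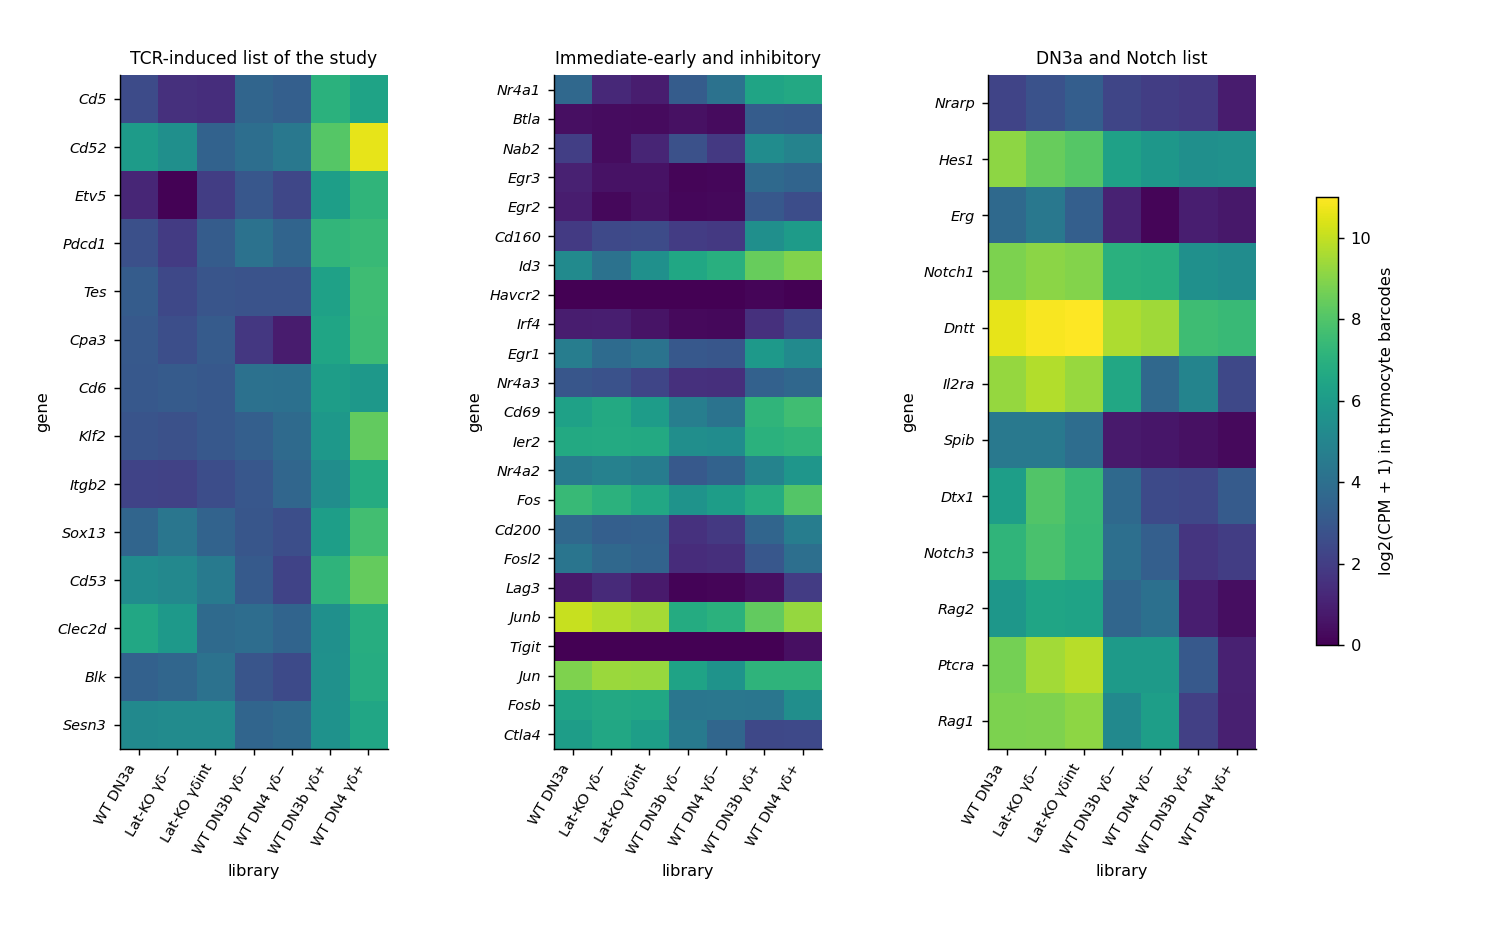
Level of each gene as log2(CPM + 1) (colour) in the thymocyte barcodes of 7 libraries (columns), for the TCR-induced list of the study, for immediate-early and inhibitory receptor genes (without Cd5, Cd6 and Pdcd1, shown on the left), and for the DN3a and Notch list. Genes are ordered by their log2 ratio of Lat-KO γδint over WT DN3b γδ+, lowest at the top of each panel, and the Lat-KO γδint column resembles its neighbours WT DN3a and Lat-KO γδ− more than WT DN3b γδ+ in the left and right panels.

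The same difference was seen barcode by barcode. At 4000 UMIs per barcode (4476 Lat-KO and 10806 WT barcodes, leaving out 452 and 857 shallower ones), the 14 genes together gave a median of 0 UMIs (90th percentile 2, mean 0.639) in Lat-KO γδint and of 5 UMIs (10th percentile 1, 90th percentile 10, mean 5.44) in WT DN3b γδ+. The WT median was reached by 24 Lat-KO barcodes, 0.536% (0.344% to 0.797%), and by 52.6% of WT barcodes. B cell barcodes (18 and 35 at this depth) reached it in every case, and B cells are known to express Cd52, Cd53, Klf2 and Blk, so that the list is not specific to T cells. These 24 Lat-KO barcodes were picked by their UMIs of the list, so that its members are high in them by choice, and 43 of those UMIs were of Cpa3. Of genes outside the list, Nkg7 was at 510 CPM in them against 113 CPM in the remaining 4452 and Ptcra at 219 against 1009 CPM, and Lat had 0 UMIs. A Cd5 UMI was present in 0.559% of Lat-KO and 39.3% of WT barcodes at this depth, and a Pdcd1 UMI in 2.35% and 43.3%. The background in B barcodes was 0 of 18 and 8.57% for Cd5, and 0 of 18 and 5.71% for Pdcd1.

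**Figure D4:**
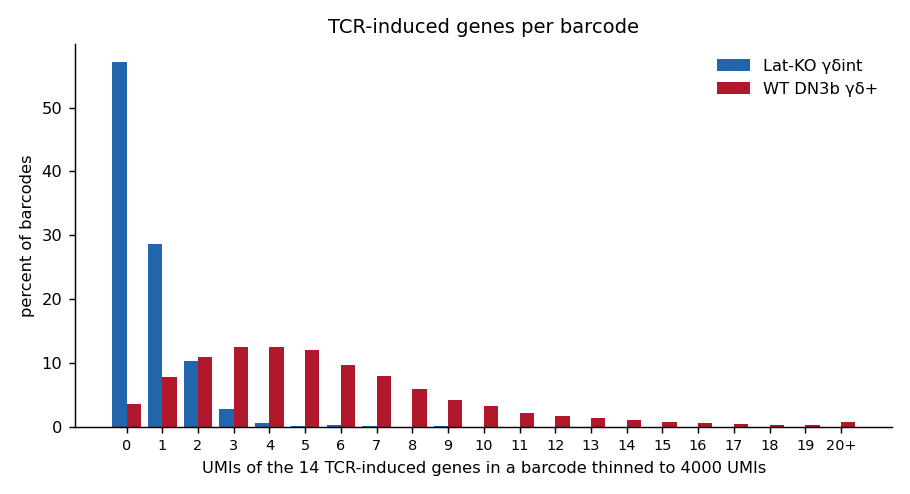
Percent of barcodes (y axis) by the number of UMIs of the 14 TCR-induced genes (x axis) after thinning each barcode to 4000 UMIs, for 4476 Lat-KO γδint and 10806 WT DN3b γδ+ barcodes. The Lat-KO bars pile up at 0 to 2 UMIs and the WT bars spread around a median of 5.

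Nuclear readouts of TCR signal strength split into a group that was far lower in the Lat-KO library and a group that was not. Of 16 immediate-early genes 11 were tested, of which 5 were lower and 2 higher, beside 7.41% and 8.96% of all tested genes, and the list median was -0.31 beside 0.51 over all tested genes. Of the lower genes, Nr4a1, Nab2 and Egr1 reached 20 CPM only in WT DN3b γδ+. Fosb, among the higher genes, reached it only in Lat-KO γδint. The counts and the median are therefore not independent evidence of direction. Nr4a1, an orphan nuclear receptor induced within minutes of TCR engagement, was at 0.837 CPM in Lat-KO γδint and 85.7 CPM in WT DN3b γδ+ (log2 ratio -6.68, -7.24 to -6.17). Nab2, a corepressor of EGR proteins and itself an EGR target, was at 1.22 against 39.3 CPM (-5.02), and Id3 at 44.8 against 350.2 CPM (-2.97). Egr1 was at 17.0 against 59.5 CPM (-1.81), and Egr2 and Egr3, under the minimum level, at 0.405 against 7.14 and 0.432 against 12.3 CPM. Cd69, an early activation marker, was less different (67.4 against 145 CPM, -1.10). For Id3 and Cd69 the B cells differed less (-0.20 and 0.35), and for the other lower genes they were not informative.

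Other immediate-early genes did not follow this order. Nr4a2, of the same family as Nr4a1, was at 23.5 against 29.3 CPM (-0.31), so that the family was split, and Ier2 was at 103 against 128 CPM. Of the AP-1 subunits, Fos was at 95.9 against 111 CPM, Junb was at 741 against 328 CPM without reaching a call, and Jun (634 against 142 CPM, log2 ratio 2.15) and Fosb (93.3 against 19.1 CPM, 2.29) were higher. Jun and Fosb were higher in B cells too (1.29 and 2.04). Fos and Jun are also induced when tissue is dissociated, and the handling of the thymi differed between the genotypes. LAT, sorting gate and handling cannot be told apart between these libraries, and their parts in the difference were not tested. Jun was at 463 CPM in WT DN3a and at 642 CPM in Lat-KO γδ−. Both levels were near that of γδint.

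The promoter of Nr4a1 is shown because it is the immediate-early gene with the lowest ratio and because a script found an EGR-type site in it. Sequences run from 250 bases before to 50 after the RefSeq start on GRCm38.p6 and are credited to RefSeq. Of 20242 genes with a promoter in the table, 7.79% held the letters GCGNGGGCG on either strand, as did 12.6% of the 5290 tested genes with a promoter, and of the 12 immediate-early genes with a promoter 4 did. Capitals mark the match, here on the opposite strand, in chr15:101266596-101266895 on the plus strand. A match is a description of the letters and not a measured binding site.

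Nr4a1: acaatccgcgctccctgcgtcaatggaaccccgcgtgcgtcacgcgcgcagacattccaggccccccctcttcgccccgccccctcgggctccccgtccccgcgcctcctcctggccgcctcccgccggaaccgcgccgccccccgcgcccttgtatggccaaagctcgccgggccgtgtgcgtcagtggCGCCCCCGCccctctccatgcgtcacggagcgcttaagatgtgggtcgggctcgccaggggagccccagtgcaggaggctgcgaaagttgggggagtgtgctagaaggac

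Few genes of the downstream branches were tested, so that the lists cannot say whether the branches differ from each other. In the ERK feedback list, 3 of 14 genes were tested and 1 was called lower, beside 7.41% of all tested genes, with a median of -0.88 beside 0.51. It was Etv5, which is also in the TCR-induced list. Dusp2 and Dusp5, phosphatases that inactivate ERK, were at 97.2 against 144 and 36.3 against 66.7 CPM, under 2-fold. The feedback inhibitors Spry2 (1.08 against 15.1 CPM) and Spry4 (0 against 545 UMIs, at least 34.6-fold lower with a floor of 3 UMIs in the Lat-KO library) were under the minimum level, whereas Spry1 (6.97 against 7.86 CPM) differed little.

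Among 9 tested NFAT and NF-κB genes 2 were lower and 4 higher, beside 7.41% and 8.96% of all tested genes, with a list median of 0.78 beside 0.51. Of the called genes only Nfatc1 reached 20 CPM in both libraries, so that the counts are not independent evidence of direction. The lower genes were Rel, the NF-κB subunit of activated lymphocytes (4.86 against 21.1 CPM, log2 ratio -2.12), and Nfatc1 (32.6 against 77.7 CPM, -1.25), both with B cells differing less (0.26 and 0.42). The higher genes were Nfkb2 (80.5 against 7.59 CPM, 3.41), Nfkbie (82.4 against 12.03 CPM, 2.78), Traf1 (26.1 against 3.94 CPM, 2.73) and Tnfrsf18, which encodes GITR (43.7 against 12.5 CPM, 1.81). B cells were higher in the Lat-KO library too for Nfkb2 (2.24) and Nfkbie (1.63). Tnfrsf9, which encodes the costimulatory receptor 4-1BB, was at 2.70 against 19.04 CPM.

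Receptors that dampen TCR signals were called in both directions. Cd5, Pdcd1, Cd6 and Cd160 (4.67 against 43.1 CPM, log2 ratio -3.21) were lower, and Btla was at 0.243 against 8.15 CPM, under the minimum. Ctla4, a receptor of the same functional class, was at 70.3 CPM in Lat-KO γδint and 4.18 CPM in WT DN3b γδ+ (4.07, 3.96 to 4.19). Ctla4 was likewise at 68.3 CPM in WT DN3a and 94.8 CPM in Lat-KO γδ−, and at 4.31 CPM in WT DN4 γδ+, while WT DN3b γδ− (22.0 CPM) and WT DN4 γδ− (11.4 CPM) lay between. Of 5 tested members 4 were lower and 1 higher, beside 7.41% and 8.96% of all tested genes, and the median was -3.30. Each reached 20 CPM only in the library where it was high, so the counts and median are not independent evidence of direction. Of the 4 lower ones Cd5, Cd6 and Pdcd1 are also in the TCR-induced list, with the limit given there, and the other 5 of the 10 listed receptors were under the minimum. Among surface proteins of maturation, the adhesion receptor gene Cd2 was at 0.486 against 26.3 CPM (-5.76, B cells 0.56) and the costimulatory receptor gene Cd28 at 68.2 against 258 CPM (-1.92), whereas Cd27 (208 against 293 CPM) and Cd24a (477 against 212 CPM) were not called. Cd8b1, the CD8 β chain, was at 2.40 and 1.05 CPM in the pair and at 11.6 CPM in WT DN3b γδ−.

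Components of proximal TCR signalling were called about as often as other genes. Of 23 tested members 2 were lower (7.41% of all tested genes), 3 higher (8.96%) and 18 neither, and the median was 0.87 beside 0.51 over all tested genes. The kinase gene Zap70 (32.9 against 81.7 CPM, log2 ratio -1.31) and Rasgrp1, which activates RAS in response to diacylglycerol (52.0 against 194 CPM, -1.90, B cells 0.94), were the lower ones. Zap70 in γδint cells was above WT DN3a (14.5 CPM) and Lat-KO γδ− (17.1 CPM). Lck (1063 against 278 CPM, 1.94), Themis (243 against 66.3 CPM, 1.88) and Pag1, an adaptor that recruits the inhibitory kinase CSK (286 against 52.2 CPM, 2.46), were higher. Partners of LAT were under 2-fold or not called, with Lcp2, which encodes SLP-76, at 69.1 against 98.6 CPM, Plcg1 at 52.0 against 26.7 CPM, Grb2 at 178 against 216 CPM and Grap2, which encodes GADS, at 102 against 42.3 CPM. Syk, the kinase used by the pre-TCR, was at 19.5 against 5.69 CPM, just under the minimum level.

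Genes of γδ effector programmes were lower in part. Of 20 genes 7 were tested, 5 of them lower and none higher, beside 7.41% and 8.96% of all tested genes, with a median of -1.04 beside 0.51. Among the 5 were Sox13 and Blk, which are also in the TCR-induced list. Sox13, Blk and Ccl4 reached 20 CPM only in WT DN3b γδ+, so that the count is not independent evidence of direction. Between G1 barcodes Sox13, Blk and Ccl4 were called lower again, and Ikzf2 (-0.98) and Gata3 (-0.99) were not. The summed level was about the same on both sides (1601 against 1653 CPM), since Gzma (586 against 639 CPM) and Sox4 (777 against 398 CPM), which were not called, made up most of it. The chemokine gene Ccl4 was at 5.13 against 44.3 CPM (log2 ratio -3.11), and it was also at 40.0 CPM in WT DN3a. Ikzf2, which encodes Helios, was at 104 against 213 CPM (-1.04), as it was in WT DN3a (213 CPM). Gata3 was at 91.0 against 182 CPM, just past 2-fold (-1.002), and the WT DN3a level was 99.8 CPM, close to that of γδint. Below the minimum level, Maf, a regulator of IL-17-producing γδ cells, was at 2.86 against 18.1 CPM, the chemokine gene Xcl1 at 0.135 against 14.5 CPM, and Il2rb, the IL-2 and IL-15 receptor β chain, had 0 against 1608 UMIs (at least 102-fold lower with the floor of 3 UMIs). Zbtb16, which encodes PLZF, had 0 against 401 UMIs.

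Some genes of homing and egress were lower as well. The lymph-node homing receptor gene Ccr7 was at 0.567 against 20.9 CPM (log2 ratio -5.20) with no difference beyond counting error in B cells (0.08), and the thymic homing receptor gene Ccr9 was at 72.3 against 166 CPM (-1.197). With Klf2 this made 3 lower of 5 tested, beside 7.41% of all tested genes, while Cxcr4 (47.6 against 27.9 CPM) was not called and lay in the other direction. Ccr7 and Klf2 reached 20 CPM only in WT DN3b γδ+, so that this count is not independent evidence of direction. Between G1 barcodes Klf2 was called lower, Ccr9 was not (-0.88), and Ccr7, at 0.665 against 14.9 CPM there (-4.49), was under the minimum. S1pr1, the egress receptor, was at 0.135 against 1.08 CPM, too low for a call.

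Genes of the DN3a stage were higher. All 9 tested genes of the DN3a and Notch list were higher in Lat-KO γδint, beside 8.96% of tested genes, with a median of 5.35 (medians of the members' own bounds 5.25 and 5.46). These genes are known to fall after the DN3a stage, the list was chosen with results of these libraries known, and Rag1, Rag2, Ptcra, Notch3 and Dtx1 reached 20 CPM only in the Lat-KO library, so that the count and the median are not independent evidence of direction. Rag1, a subunit of the V(D)J recombinase, was at 553 CPM in Lat-KO γδint and 3.28 CPM in WT DN3b γδ+ (log2 ratio 7.40, 7.28 to 7.51), and Rag2 at 81.3 against 0.904 CPM (6.49). Ptcra, which encodes the pre-TCR α chain, was at 891 against 7.36 CPM (6.92), 121-fold higher, and Dntt, the polymerase that adds bases at V(D)J junctions, at 2461 against 189 CPM (3.71). Ptcra in γδint cells was above WT DN3a (412 CPM) and Lat-KO γδ− (716 CPM). Notch3 (163 against 2.28 CPM, 6.16), Notch1 (502 against 45.1 CPM, 3.48) and the Notch targets Dtx1 (167 against 4.10 CPM, 5.35), Il2ra, which encodes CD25 (622 against 30.4 CPM, 4.36), and Hes1 (274 against 44.1 CPM, 2.64) were higher with them. In WT DN3a, Rag1 was at 456 CPM, Notch3 at 148 CPM, Notch1 at 454 CPM and Il2ra at 612 CPM, near the γδint levels, whereas Hes1 was higher there (562 CPM). The B cell rule set all 9 genes apart, and once carried-over RNA was allowed for the B cells were not informative for any of them.

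At 4000 UMIs per barcode a Ptcra UMI was present in 90.04% of Lat-KO γδint and 2.82% of WT DN3b γδ+ barcodes, and a Rag1 UMI in 76.7% and 1.43%. Il2ra was detected in 84.7% and 10.6%. The B cell background was 27.8% and 2.86% for Ptcra, 5.56% and 0 of 35 for Rag1 and 16.7% and 2.86% for Il2ra. For Ptcra the WT background was 1 of 35 B barcodes (0.07% to 14.9%), too few to compare with the WT thymocyte share. Without thinning, a Ptcra UMI was present in 6.35% of WT thymocyte and 1.25% of WT B barcodes. Notch3 was found in 46.9% of Lat-KO and 1.14% of WT barcodes, with no UMI in B barcodes, so that detection differed among the listed genes.

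The promoters of Rag1 and Ptcra are shown as those of the genes with the highest ratios on this list. Capitals mark the E-box letters CANCTG, the core bound by E proteins, on either strand. CAGGTG in Rag1 matches on the opposite strand only. Of all 20242 genes with a promoter 53.2% held such a match, and of the 11 listed genes with a promoter 6 did, so that the letters do not set this list apart. The windows are chr2:101649483-101649782 on the minus strand and chr17:46763663-46763962 on the minus strand (GRCm38.p6).

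Rag1: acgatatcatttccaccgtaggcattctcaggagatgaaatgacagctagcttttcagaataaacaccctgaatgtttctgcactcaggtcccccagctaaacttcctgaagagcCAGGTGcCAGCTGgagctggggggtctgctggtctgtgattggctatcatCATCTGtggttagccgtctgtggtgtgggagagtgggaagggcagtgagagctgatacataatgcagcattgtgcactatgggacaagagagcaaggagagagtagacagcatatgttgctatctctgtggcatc

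Ptcra: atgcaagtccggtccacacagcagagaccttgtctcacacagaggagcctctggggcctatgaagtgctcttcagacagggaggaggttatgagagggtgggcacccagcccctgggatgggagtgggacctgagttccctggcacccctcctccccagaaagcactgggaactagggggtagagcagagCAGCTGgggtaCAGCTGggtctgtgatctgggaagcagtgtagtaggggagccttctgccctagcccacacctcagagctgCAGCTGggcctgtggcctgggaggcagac

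Transcription factors of the T lineage were called in both directions. Of 12 tested genes 4 were lower and 3 higher, beside 7.41% and 8.96% of all tested genes, with a median of -0.21 beside 0.51. Tox2 (1.84 against 51.8 CPM, log2 ratio -4.82), Runx3 (17.8 against 69.9 CPM, -1.98) and Tox (53.1 against 167 CPM, -1.65) were lower with Gata3, and Bcl11b (856 against 173 CPM, 2.30), Runx1 (365 against 66.7 CPM, 2.45) and Satb1 (248 against 63.2 CPM, 1.97) were higher. Tox2 and Runx3 reached 20 CPM only in WT DN3b γδ+. Tcf7, which encodes TCF1, was level (363 against 378 CPM), and Lef1 was at 439 against 562 CPM. Among E and Id proteins, Tcf12, which encodes HEB, was higher (416 against 95.2 CPM, 2.13, B cells 0.04), Tcf3, which encodes E2A, was not called (130 against 86.0 CPM), and Id2 was at 37.4 against 29.9 CPM while Id3 was lower. Of the cytokine receptors, Ifngr1 was higher (358 against 85.1 CPM, 2.07) and Il7r was not called (59.7 against 36.4 CPM).

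The libraries also differed in the phases scored from cell cycle genes. With phase scores computed on barcodes thinned to 4000 UMIs, 27.5% (26.2% to 28.9%) of Lat-KO γδint barcodes and 78.7% (77.9% to 79.5%) of WT DN3b γδ+ barcodes were in S or G2M. No B cell barcode was so scored (0 of 18 and 0 of 35), which allows shares of up to 18.5% and 10.0%. Without thinning, 0 of 105 Lat-KO and 9 of 80 WT B cell barcodes (11.25%, 5.28% to 20.3%) were, so that B cell barcodes differed in the same direction at that setting. The comparison was therefore repeated within phases. Between G1 barcodes (3244 Lat-KO and 2302 WT) 586 genes were lower and 776 higher, and between S or G2M barcodes (1232 and 8504) 456 and 332. Of the 488 lower genes 443 were also lower in G1 and 417 in S or G2M, and of the 590 higher genes 561 and 314 were also higher. The TCR-induced list had a median of -3.50 in G1 and -2.94 in S or G2M. Cd5 (-6.61 and -5.95), Nr4a1 (-7.33 and -6.16), Nrgn (-10.48 and -6.89), Rag1 (5.87 and 7.41) and Ptcra (5.86 and 6.89) had the same direction in both phases.

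Cell cycle genes were called lower about as often as other genes over all barcodes, with sums of 5154 against 6023 CPM for the S-phase list and 6873 against 10052 CPM for the G2M list. Of 42 tested S-phase genes 5 were lower and of 46 tested G2M genes 3 were lower, beside 7.41% of all tested genes, with medians of -0.30 and -0.42 beside 0.51. Hells, a chromatin remodeller of replicating cells, was at 69.4 against 168 CPM, and Hmgb2 at 879 against 2602 CPM. The list medians were -1.39 and -0.96 between G1 barcodes and 0.43 and 0.40 between S or G2M barcodes. Phases were scored from these same lists, so that the medians within phases are not independent of the scoring. Ccne1 and Ccne2, the cyclins of S-phase entry, were lower (14.04 against 32.5 and 14.1 against 28.4 CPM), and between G1 barcodes they differed more (-3.03 and -2.64) while between S or G2M barcodes they differed little (-0.24 and -0.07). Cdkn1a, which encodes the cell cycle inhibitor p21, was higher (78.0 against 7.94 CPM, 3.30), and Cdk4, Ccnd2 and Ccnd3 were not called.

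Most quiescence genes were higher on the Lat-KO side. Of 9 tested genes 6 were higher and 1, Klf2, lower, beside 8.96% and 7.41% of all tested genes, with a median of 2.06 beside 0.51. Ypel3 and Tsc22d3, among the higher genes, reached 20 CPM only in the Lat-KO library, and Klf2 only in WT DN3b γδ+. Btg1 (434 against 104 CPM, log2 ratio 2.06) and Btg2 (227 against 70.6 CPM, 1.68) restrain proliferation, Pik3ip1 (182 against 23.9 CPM, 2.93) inhibits PI3 kinase, and Txnip (154 against 34.1 CPM, 2.18) limits glucose uptake. For these 4 genes and for Tsc22d3 (83.2 against 12.3 CPM, 2.75), which glucocorticoids induce, the B cells differed less. For the remaining gene, Ypel3 (124 against 14.1 CPM, 3.14), they were not informative. Between S or G2M barcodes Pik3ip1, Ypel3 and Tsc22d3 of these 6 were called higher. Few of the listed metabolic genes were called. The transferrin receptor gene Tfrc was the 1 lower of 12 genes of nutrient uptake and glycolysis (32.9 against 72.3 CPM, -1.14), a share close to the 7.41% of all tested genes, the 12 tested sterol genes had a median of 0.81, and none of 15 genes of ribosome biogenesis was called. Of 7 genes of the BCL2 family, Bcl2l11, which encodes the pro-apoptotic BIM, was the 1 called, and it was higher (37.1 against 10.1 CPM, 1.88), beside 8.96% of all tested genes.

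Most interferon-response genes were higher in the Lat-KO library. Of 8 tested genes 6 were higher and none lower, beside 8.96% and 7.41% of all tested genes, with a median of 2.28 beside 0.51. Irf7 was at 23.1 against 4.04 CPM, Irf9 at 39.1 against 6.82 CPM, Rtp4 at 67.2 against 9.91 CPM and Oasl2 at 21.1 against 1.64 CPM. All of these reached 20 CPM only in the Lat-KO library, so that the count and the median are not independent evidence of direction. Isg15, a ubiquitin-like protein, was at 92.6 against 27.1 CPM (1.77), but B cells differed as much (1.89). Bst2, which encodes tetherin, was at 352 against 120.2 CPM and not called, and Usp18 was level. Of the 6 called genes 5 were called higher between G1 barcodes too and 3 between S or G2M barcodes, where Irf7 (2.20) and Oasl2 (3.35) were under the minimum level. The 6 called genes were as high as in WT DN3a or higher, with Rtp4 at 35.4 CPM and Isg15 at 92.4 CPM there, and each was higher in Lat-KO γδ− (83.2 and 210 CPM for these).

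The promoter of Isg15, which held the most matches among the interferon genes looked at, is printed with the letters TTTC, any 2 bases and TTTC of an interferon-stimulated response element in capitals (3 overlapping matches, on the opposite strand, in chr4:156200769-156201068 on the minus strand, GRCm38.p6). Such a match was found in 3.92% of 20242 genes with a promoter and in 4 of the 7 interferon genes with one. The 4 were Isg15, Ifit1, Ifit3 and Bst2, whereas Irf7, Irf9 and Oasl2, which were called higher, held no match.

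Isg15: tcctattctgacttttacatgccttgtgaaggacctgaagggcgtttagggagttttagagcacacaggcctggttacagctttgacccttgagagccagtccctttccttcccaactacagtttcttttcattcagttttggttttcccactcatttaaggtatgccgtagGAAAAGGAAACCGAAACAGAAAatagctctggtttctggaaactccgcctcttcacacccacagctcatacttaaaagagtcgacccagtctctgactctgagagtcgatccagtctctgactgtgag

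**Figure D5:**
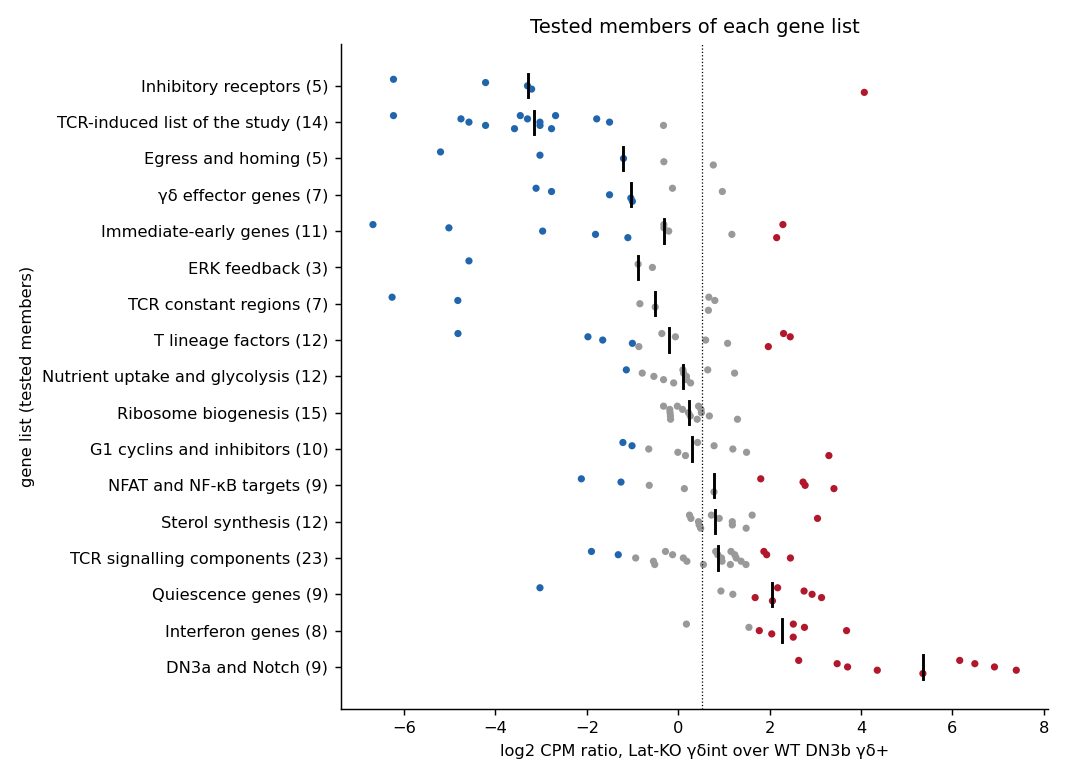
Log2 CPM ratio (Lat-KO γδint over WT DN3b γδ+, x axis) of every tested member (points) of 17 gene lists (y axis, number tested in parentheses), with blue for called lower, red for called higher and grey for neither. Black bars mark list medians and the dotted line the median over all tested genes (0.51): inhibitory receptors and the TCR-induced list sit lowest, at -3.30 and -3.16, and the DN3a and Notch list highest, at 5.35. Most members of these lists reached 20 CPM only in the library where they were high, so their positions are not independent evidence of direction.

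Beyond the lists, the largest differences were named by a rule on size. Lowest among called genes that the B cell rule set apart, besides Lat, were B630019A10Rik, a transcript annotated as antisense (7 against 15891 UMIs, log2 ratio -8.75), A430093F15Rik (-8.06), Rapsn, which clusters acetylcholine receptors in muscle (4 against 5585 UMIs, -8.05), and Nrgn, which encodes the calmodulin-binding neurogranin (1.54 against 377 CPM, -7.93). At 4000 UMIs per barcode Nrgn was detected in 0.380% of Lat-KO and 43.8% of WT barcodes, with 0 of 18 and 22.9% in B barcodes. For these 4 genes the B cells were not informative once carried-over RNA was allowed for. Levels in WT DN3a were at most 1.67 CPM and in WT DN4 γδ+ at least 25.6 CPM, so that each was high in both WT γδ+ libraries.

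Among lower genes not set apart, St6gal1, a sialyltransferase, was at 0.270 against 32.7 CPM (log2 ratio -6.92), the GTPase gene Gem at 0.810 against 70.3 CPM (-6.44), and Qpct, a glutaminyl cyclase, at 1.73 against 21.6 CPM (-3.64). Gem had B cells differing less (0.61). The tropomyosin gene Tpm4 was at 38.1 against 236 CPM (-2.63, B cells 0.29), the plastin gene Lcp1 at 82.9 against 429 CPM (-2.37, B cells -0.03) and Tmsb4x, a thymosin, at 804 against 4786 CPM (-2.57, B cells -1.19). Arap2, an activator of ARF GTPase hydrolysis, was at 8.75 against 48.4 CPM (-2.47). The rule also named Cd2, Ccr7, Ccl4, Klf2 and Cd53, described above. For St6gal1, Qpct, Arap2 and Ccl4 the B cells were not informative.

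Among higher genes not set apart, Tnfrsf8, which encodes CD30, was at 23.2 against 0.596 CPM (log2 ratio 5.28), and it was lower in WT DN3a (3.76 CPM) than in either Lat-KO library (21.4 CPM in γδ−). Tctex1d1 (4.08), the calpain gene Capn3 (3.41), the endocytic receptor gene Lrp1 (3.09), Dgkg, a diacylglycerol kinase (3.07), Evpl (3.05), Slc23a4 (2.98), the tight-junction gene Tjp3 (2.98) and D030028A08Rik (2.91) followed, each between 20.3 and 29.5 CPM in Lat-KO γδint. The remaining 3 genes named by the rule were Tsc22d3, Irf9 and Irf7. Of all these genes not set apart, the B cells differed less for Tsc22d3 and were not informative for the others. Highest among the genes set apart were the reporter feature (11.47), 2300002M23Rik (20.5 against 0.041 CPM, 8.96), Rnf182 (8.46), the transcription factor gene Atoh8 (8.43) and Cpsf4l (7.72). Once carried-over RNA was allowed for, the B cells were not informative for any of them. Rnf182 was at 23.6 CPM in γδint, 18.6 CPM in Lat-KO γδ− and 2.60 CPM in WT DN3a, and 2300002M23Rik at 20.5, 8.67 and 0.787 CPM, so that both were highest in the Lat-KO libraries. Tctex1d1, in contrast, was at 51.5 CPM in WT DN3a against 26.0 CPM in γδint.

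The neighbourhoods of the modified loci were described as well. Within 5 Mb of Lat, 4 of 68 tested genes were lower and 4 higher (5.88% each), and within 5 Mb of Trdc 8 of 52 were lower (15.4%), Trac among them, and 3 higher (5.77%), beside 7.41% lower and 8.96% higher of all tested genes. Of the lower genes near Trdc, B cells differed too for Mrpl52 and differed less for Gm43305 and Lrp10. For the others, Trac among them, they were not informative, and a link to the modified locus was not tested.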

How the data were processed

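Single-cell 3' RNA libraries of mouse thymocytes were analysed, 1 library each for Lat-KO DN3 γδint and WT DN3b γδ+, with the 5 other libraries beside them for levels. The authors deposited raw UMI counts per gene and barcode, and the file headers name Cell Ranger 4.0.0, whereas the submitters' processing notes name Cell Ranger 5.0.1, R 3.6.3, Seurat 3.1.5 and mm10. A feature for the edited Trdc reporter had been added to the reference. All value columns of the files used were assigned to a sample, with 0 left over.

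Barcodes were filtered as described at the start of the results, and UMIs were summed per gene and library. Intervals are exact at 95% (Poisson for counts, conditional binomial for log2 ratios, Clopper-Pearson for shares), and the floor for a gene at 0 is 3 counts in the library. The comparison has no replicates, so no test was run. Genes with at least 20 CPM in a library were called at 2-fold under both CPM and TMM. The TMM factor was computed in Python, and edgeR 4.0.16 in R 4.3.3, run only to check it, gave the same log2 factor (0.64). Phases were scored by Seurat's method (24 bins, 100 control genes, scale 10000) on barcodes thinned to 4000 UMIs. Doublet scores came from Scrublet in scanpy 1.11.5. Other steps used Python 3.11.15 with numpy 2.4.6, scipy 1.17.1, pandas 2.3.3 and matplotlib 3.10.9. The fold calls were tried on simulated counts with known changes. Those counts held no transcript-length shift, no scaling difference and no carried-over RNA, so that the B cell classes were not tested. Positions and transcript lengths are those of GENCODE vM21, found for 32235 of 32286 features, and promoters those of RefSeq.

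Named genes were Lat, Trdc and its reporter feature, the 12 lowest and 12 highest log2 ratios among called genes not set apart by the B cells (without mitochondrial, ribosomal-protein and TCR segment genes), the 5 lowest and 5 highest among those set apart, and members of 23 gene lists and 8 marker lists. Snrpe, Lsm5, Mrpl52, Ndufa4, Tmsb10, Pld4, Mxd4 and Spns1 were added after their values were seen. The members and lists were chosen with earlier results of these data known. The study ranked genes by a Wilcoxon test over cells, which are not replicates, and that test was not used. Values of some listed genes are not reported here.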

Additional observations from a re-analysis of the deposited data

How the results depend on the processing

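Of 144 called single-gene results (1904 values over the alternatives run) 2 values changed direction, and of 14 list medians of at least 2-fold (188 values) 0 did. Over all 327 genes and 29 lists, 215 of 4334 and 20 of 397 values changed sign, 52 and 5 of them with TMM. Subtracting the B cell log2 ratio turned Isg15 to -0.12 and Hmgb2 to 0.43, since B cells differed as much or more. The median of the TCR-induced list (-3.16) moved to -3.80 with TMM, -3.50 in G1, -2.94 in S or G2M, -3.38 with mean CPM per barcode and -2.88 less the B cell ratio.

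The number of genes called lower (488) was 200 for transcripts of at least 2000 nucleotides, 1592 with no minimum level and 180 at 4-fold. The number of genes called higher (590) was 332 in S or G2M, 1068 at a minimum of 5 CPM, 2566 with no minimum and 193 at 4-fold. The genes called lower and not set apart by the B cell rule (91) numbered 173 without ribosomal-protein and mitochondrial genes in the total, 137 in G1, 264 at 5 CPM, 1172 with no minimum, 14 at 4-fold, 210 with B barcodes of at most 2 Cd3 UMIs, 488 with none set apart, and 272 with carried-over RNA allowed for, an alternative chosen after seeing the data. The genes called higher and not set apart by the B cell rule (107) numbered 183 in G1, 49 in S or G2M, 395 at 5 CPM, 1832 with no minimum, 10 at 4-fold, 491 with those B barcodes, 590 with none set apart and 504 with carried-over RNA allowed for. Fewer or more genes enter under another level, fold, length or B cell rule by construction, and for the other settings the cause was not tested.

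The share of Lat-KO barcodes at or above the WT median of the list (0.536%) was 0.162% without thinning, 4.70% at 2000 UMIs, 0.956% in G1 and 0.893% in S or G2M. The WT median was taken anew at each setting, so that the cut moved from 5 UMIs to 18, 2, 4 and 5 UMIs. The WT share at or above it moved from 52.6% to 50.3%, 66.7%, 61.5% and 53.3%. These settings are therefore not like for like, and without thinning the barcodes also differed in depth. The S or G2M share of Lat-KO barcodes (27.5%) was 24.5% at 2000 UMIs, 26.03% without thinning and 35.1% with each library scored alone, and that of WT barcodes (78.7%) was 73.7%, 83.3% and 68.1%, and 77.5% without the 8% highest doublet scores. A cap of 4 B cell UMIs and leaving out shared barcodes were also added after seeing the data.

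No paired analysis was possible because each group was 1 library and the labels give no replicate numbers. Depth limits genes near 0 in the Lat-KO library, which held 37034884 thymocyte UMIs against 194621578, and the few B cell barcodes limit their ratios.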

Other observations

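The 24 Lat-KO γδint barcodes that reached the WT median of the TCR-induced list had Tcrg-C1 at 1052 CPM against 561 CPM in the remaining 4452 barcodes. Of the 24 barcodes 11 were scored in S or G2M, and of the remaining 4452 barcodes 1221 were. The imprinted non-coding RNA H19 was at 143 CPM in Lat-KO γδint, 255 CPM in Lat-KO γδ−, 72.5 CPM in WT DN3a and 0.730 CPM in WT DN3b γδ+.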
